A study of Mus musculus with 9 samples.

Results

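The cytosolic ribosomal protein genes encode the protein subunits of the ribosome that translates nuclear-encoded mRNAs. They were chosen by name: gene symbols that begin with Rpl or Rps followed by a number and at most one of the letters a, l, x or y, together with Rplp0, Rplp1, Rplp2 and Rpsa, with the S6 kinases left out. The rule found 64 genes among the 20680 genes that had a probe set annotated to that gene alone, of which 35 belong to the large subunit, 26 to the small subunit and 3 to the stalk of the large subunit. Each gene was read from its brightest single-gene probe set over the 9 arrays. A further 16 genes with such names, among them Rpl5 and Rps27a, were annotated only on probe sets that also list other genes or gene models, and those probe sets are described separately.

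The arrays profiled acute myeloid leukaemia cells of the mouse in which the gene Ezh2, which encodes the enzyme of a Polycomb complex that methylates histone H3, was either intact or deleted. Both genotypes carried a retrovirus expressing the MLL-AF9 fusion oncogene together with GFP, and in both a Cre recombinase was switched on by pIpC in the first recipients, with YFP reporting Cre activity. The WT group had 4 arrays and the Ezh2-null group 5, each labelled a biological replicate. The animal from which each primary leukaemia arose was not given, so p-values measure the spread between these samples. Leukaemic colonies had been replated and 100000 cells injected into C57B/6 mice irradiated with 600 cGy. Sorted leukaemic marrow was passed to secondary recipients irradiated in the same way. The RNA came from secondary-recipient bone marrow that had been sorted on scatter, exclusion of propidium iodide and joint GFP and YFP fluorescence, and it was amplified as cDNA before biotin labelling. The driver of Cre and the alleles used were not given in the labels. Since each array measures a pool of sorted cells, fewer cells of a type and less RNA per cell cannot be told apart.

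Each ribosome holds one copy of nearly every ribosomal protein, so the subunits are made in matched amounts, and unassembled copies are degraded. Most of their mRNAs in vertebrates begin with a C followed by a run of pyrimidines, the terminal oligopyrimidine (TOP) tract, through which mTOR signalling controls their translation rather than their abundance. In human blood, loss of a single copy of a ribosomal protein gene causes Diamond-Blackfan anaemia and is found in some myelodysplastic syndromes, and several free ribosomal proteins bind Mdm2 and stabilise p53.

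Start-site windows are shown for some of the genes named below, because the TOP tract is the sequence these genes are known to share. The windows run from 15 bases before to 15 bases from the annotated start, from RefSeq on GRCm38.p6, which annotated a start for 49 of the 64 genes. Capitals mark a C followed by at least 6 pyrimidines within the window, or the motif CCGGAAG, the core bound by ETS-family factors, read on either strand.
Rpl35, chr2:39005117-39005146, minus strand: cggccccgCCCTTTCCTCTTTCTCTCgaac
Rpl15, chr14:18270972-18271001, minus strand: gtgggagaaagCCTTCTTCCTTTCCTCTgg
Rpl13a, chr7:45128731-45128760, minus strand: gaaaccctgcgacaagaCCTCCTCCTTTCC
Rps27, chr3:90213634-90213663, minus strand: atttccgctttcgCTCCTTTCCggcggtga
Rps27l, chr9:66946071-66946100, plus strand: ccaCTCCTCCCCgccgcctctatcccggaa
Rps6, chr4:86857353-86857382, minus strand: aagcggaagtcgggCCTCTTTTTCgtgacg
Rplp2, chr7:141447636-141447665, plus strand: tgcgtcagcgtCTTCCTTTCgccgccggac
Rpl11, chr4:136053379-136053408, minus strand: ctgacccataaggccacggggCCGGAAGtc
Rpsa, chr9:120127751-120127780, plus strand: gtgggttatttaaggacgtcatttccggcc
The first 7 windows hold a tract, the Rpl11 window holds CCGGAAG without one, and the Rpsa window holds neither. In Rps27l the marked stretch lies wholly before the annotated start, so it is not part of a transcript that begins there. Rps27l is shown at the first of its 2 annotated starts. A C at the annotated start itself with at least 4 pyrimidines directly after it stood at 10 of the 58 annotated starts of ribosomal protein genes, or 17.2%, and at 2.51% of all 32851 mouse starts. The tract anywhere in the 30 bases stood at 28 of the 58 starts, or 48.3%, beside 14.2% of all starts. The windows shown thus hold it more often than the 58 starts do, and those of other named genes, such as Rplp0, Rpl6 and Rpl12, held none. The letters CCGGAAG on either strand, searched from 250 bases before to 50 bases after the start, were at 25 starts, or 43.1%, beside 8.86% of all starts. The GC box GGGCGG was in 56.9% of these windows and 35.7% of all windows, ATGGCGG, the core of the YY1 motif, in 13.8% and 4.05%, and the TATA box letters TATAAA in 8.62% and 13.6%, each on either strand and without regard to overlap with another motif. A match of letters is a description of the annotated sequence and not a measured binding site.

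The gene that defines the genotypes was lower in the Ezh2-null arrays. The log2 intensity of Ezh2 was 9.79, 10.61, 10.72 and 10.89 in WT replicates 1 to 4 and 9.32, 9.33, 9.36, 8.95 and 9.07 in Ezh2-null replicates 1 to 5, and the groups did not overlap. The limma log2 change, Ezh2-null minus WT, was -1.30 (SE 0.21, adjusted p = 0.0373), and without WT replicates 3 and 4 it was -0.99 with an adjusted p of 0.149. The call was also lost in 6 of the 9 fits that left out a single array (adjusted p from 0.0748 to 0.103) and with the replicate number as a block (adjusted p = 0.0815). The position of the probes relative to the deleted exons was not given. Across all genes 103 of 20680 passed an adjusted p of 0.05, which is 0.498%. The 11 of 12 myeloid markers measured had a median log2 intensity of 12.30, beside 6.98 for 11 B and T cell markers, 6.88 for 9 erythroid markers and 6.73 for 10 stromal and endothelial markers. The median over all genes was 7.57 and over 5 stem and progenitor markers 8.76. The single marker of these lists to pass was Tfrc, the transferrin receptor, with a log2 change of -1.25 (SE 0.23, adjusted p = 0.0471), a call lost when any 1 of the 9 arrays was left out (adjusted p from 0.0559 to 0.112). WT replicates 3 and 4 stood apart from the other arrays: 15 neutrophil maturation genes had median log2 deviations from their own means of -1.57 and -1.21 there and between -0.08 and 0.98 on the other 7 arrays. Counts, and the changes of most named genes that moved, are also given without these 2 arrays.

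Ribosomal protein transcripts gave some of the strongest signals on the arrays and differed little between the genotypes. None of the 64 genes passed the test at an adjusted p of 0.05 in limma, beside 0.498% of all genes, and 2, Rpl8 and Rpsa, had an unadjusted p under 0.05, beside 17.2% of all genes. The median log2 change over the 64 genes was -0.05 and over all genes 0.02. The changes ran from -0.54 for Rpl17 to 0.07 for Rps4x, with 47 genes lower and 17 higher in the Ezh2-null arrays, beside 46.7% of all genes lower. Without WT replicates 3 and 4 the median of the ribosomal protein genes was 0.01, with 30 genes lower and 34 higher, the sign turned in 23 of the 64, and again none passed. In 3 genes, Rpsa, Rpl8 and Rpl35, the last of them named after its values were seen, every Ezh2-null array lay below every WT array. Over all genes the genotypes separated in 5.90%, and in 2.87% with the Ezh2-null arrays lower. No ribosomal protein gene separated in the other direction.

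**Figure D1:**
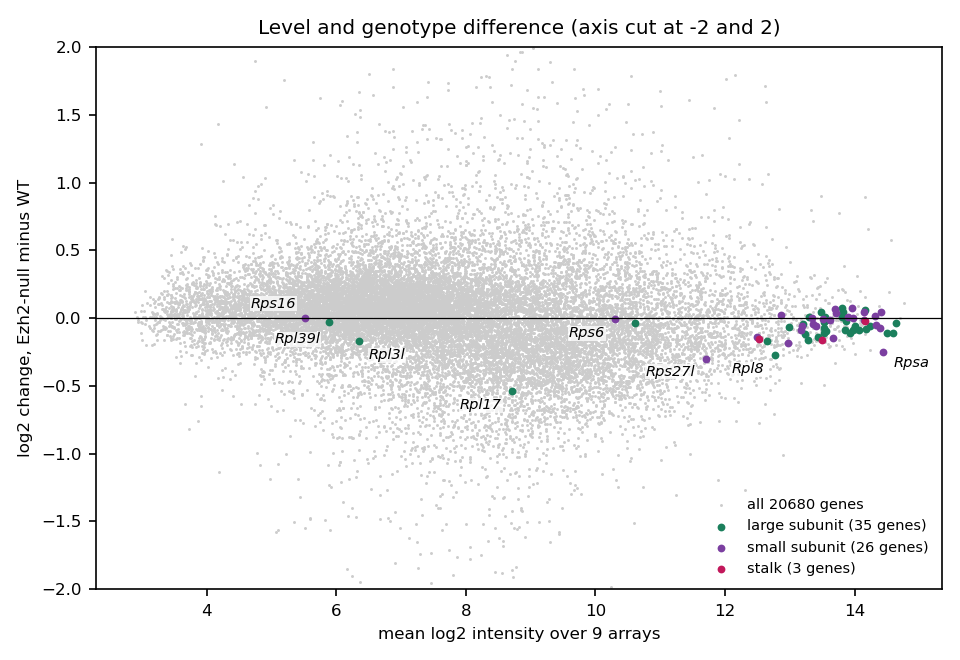
Mean log2 intensity over the 9 arrays (horizontal) against the log2 change, Ezh2-null minus WT (vertical), for all 20680 genes in grey and the 64 ribosomal protein genes in colour by subunit, with the vertical axis cut at -2 and 2. Most coloured points crowd at the right edge around 0, and Rpl17 lies lowest at -0.54.

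On the brightest single-gene probe sets the signal was high enough, and the arrays close enough, to bound these differences in signal. Dimmer probe sets of the same genes, described below, reached changes of -0.75 and are not covered by these bounds. The 95% confidence interval of the log2 change lay within -0.5 and 0.5, which is 1.41-fold either way, for 58 of the 64 genes, or 90.6%, and for 42.8% of all genes. For 63 of the 64 it lay within -1 and 1. The median SD within a genotype was 0.10 for the ribosomal protein genes, 0.13 for the other 357 genes among the brightest 2% and 0.24 for all genes. The median log2 intensity of those 357 genes was 12.93, beside 13.56 for the 64 ribosomal protein genes, so their signal was not matched. Of the 357 genes 71.4% had intervals within -0.5 and 0.5, and 68 of them, or 19.0%, had an unadjusted p under 0.05. The 6 ribosomal protein genes whose intervals reached below -0.5 were Rpl17, Rps27l, Rpl8, Rpl12, Rpl3l and Rplp1.

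By signal, 57 of the 64 genes were among the brightest 2% of genes, of which they made up 13.8%, and 21 were among the 50 brightest. Signal depends on the probes as well as the transcript, so the rank describes the measurement and not the number of mRNA molecules. The brightest, Rpl23, whose free protein binds Mdm2, had log2 intensities of 14.64 to 14.68 in WT and 14.55 to 14.66 in Ezh2-null arrays. The highest value of any single-gene probe set on any array was 15.08, close to these levels, and whether the scanner range compressed their differences was not tested. Rpl13a, which can leave the ribosome to silence inflammatory mRNAs, ran from 14.58 to 14.68 in WT and from 14.47 to 14.61 in Ezh2-null arrays. Rpl41, the shortest ribosomal protein, had a log2 change of -0.11 (95% interval -0.32 to 0.10), or -0.03 without WT replicates 3 and 4. Of the 7 other genes Rps27l lay just below, and the 6 below the 95th percentile were Rpl31, Rps6, Rpl17, Rpl3l, Rpl39l and Rps16, and the brightest single-gene probe set of Rps16, at a mean of 5.52, gave a signal below most genes on the array. Its log2 change was 0.00 (95% interval -0.37 to 0.37), or -0.01 without WT replicates 3 and 4. The low rank holds for single-gene probe sets only. On probe sets that also list gene models, the highest means of Rps16, Rps6, Rpl31 and Rpl17 were 13.67, 14.56, 14.16 and 13.49. The changes there were 0.10, -0.10, 0.01 and -0.03. No such probe set listed Rpl3l or Rpl39l.

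In the small subunit 17 of 26 genes were lower, the median log2 change was -0.01 and none passed. With WT replicates 3 and 4 left out, 11 were lower and 15 higher, with a median of 0.01. Rpsa, a small-subunit protein also described as the laminin receptor precursor, had log2 intensities of 14.67, 14.54, 14.64 and 14.50 in WT and 14.29, 14.33, 14.46, 14.25 and 14.34 in Ezh2-null arrays. The 2 groups were separated by a narrow gap, between WT replicate 4 and Ezh2-null replicate 3. The log2 change was -0.25 (SE 0.10, 95% interval -0.47 to -0.04, adjusted p = 0.228), which did not pass, and without WT replicates 3 and 4 it was -0.27. Rps26, a Diamond-Blackfan gene, had 12.82, 13.09, 13.18 and 13.23 in WT and 12.76, 12.87, 12.91, 12.76 and 13.17 in Ezh2-null arrays. The groups overlapped through WT replicate 1 and Ezh2-null replicate 5, and the change was -0.19 (SE 0.13, adjusted p = 0.494), or -0.06 without WT replicates 3 and 4. Rps14, whose loss from one allele underlies the anaemia of a myelodysplastic syndrome, ran 13.90, 13.73, 13.71 and 13.63 in WT and 13.63, 13.56, 13.66, 13.53 and 13.60 in Ezh2-null arrays. Its WT replicate 4 lay within the Ezh2-null range, and the change of -0.15 (SE 0.10) had an adjusted p of 0.473. It was -0.22 without WT replicates 3 and 4.

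Rps19, the gene most often mutated in Diamond-Blackfan anaemia, had log2 intensities of 12.37, 12.54, 12.69 and 12.68 in WT and 12.32, 12.27, 12.56, 12.32 and 12.71 in Ezh2-null arrays. The highest array was Ezh2-null replicate 5, and the change was -0.14 (SE 0.13, adjusted p = 0.622), or -0.02 without WT replicates 3 and 4. Rps6, the substrate of the S6 kinases downstream of mTOR, ran 10.05, 9.92, 10.60 and 10.67 in WT and 10.39, 10.15, 10.36, 10.27 and 10.36 in Ezh2-null arrays. Its WT arrays spread more widely than the Ezh2-null arrays and enclosed all of them, with a change of 0.00 (SE 0.17), or 0.32 without WT replicates 3 and 4 (adjusted p = 0.356). The genes furthest higher in the small subunit, Rps4x, which is encoded on the X chromosome, and Rps20, a protein of the subunit's head, had changes of 0.07 (95% interval -0.14 to 0.29) and 0.06 (-0.14 to 0.27). In both the genotypes overlapped.

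In the large subunit 27 of 35 genes were lower, the median log2 change was -0.06 and none passed. Leaving out WT replicates 3 and 4 gave 18 lower and 17 higher, with a median of -0.01. Rpl17, which lines the tunnel of the nascent peptide, had the lowest change of all 64. Its log2 intensities were 7.90, 9.11, 9.57 and 9.49 in WT and 8.60, 8.25, 8.42, 8.41 and 8.72 in Ezh2-null arrays. WT replicate 1 was the lowest of all 9 arrays and the other 3 WT arrays were the highest. The change was -0.54 (SE 0.30, 95% interval -1.21 to 0.14, adjusted p = 0.393), and without WT replicate 1 it was -0.91 with an adjusted p of 0.0409, a fit in which 1.17% of all genes passed. The change was -0.02 without WT replicates 3 and 4. One array thus decided whether Rpl17 passed. With those 2 left out, WT rested on replicates 1 and 2, at 7.90 and 9.11, below and above every Ezh2-null array. All these values came from the only single-gene probe set of Rpl17, at a mean of 8.72. Brighter probe sets that list Rpl17 with gene models, at means of 13.49 and 12.91, had changes of -0.03 and 0.06.

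Rpl8, which lies near the peptidyl transferase centre, had log2 intensities of 12.83, 12.83, 13.03 and 12.99 in WT and 12.63, 12.50, 12.81, 12.60 and 12.72 in Ezh2-null arrays. WT replicates 1 and 2 and Ezh2-null replicate 3 were nearly level, without overlap. The change was -0.27 (SE 0.11, 95% interval -0.51 to -0.03, adjusted p = 0.235), and without WT replicates 3 and 4 it was -0.18. Rpl35, a protein at the tunnel exit, separated the groups by a far smaller distance, with 14.27, 14.26, 14.29 and 14.29 in WT and 14.17, 14.23, 14.25, 14.19 and 14.25 in Ezh2-null arrays. Its arrays were among the most tightly grouped, and the change was -0.06 (SE 0.09, adjusted p = 0.769). Rpl6 and Rpl12, the latter at the base of the stalk, had changes of -0.16 (SE 0.10) and -0.17 (SE 0.16), with overlapping groups. These were -0.09 and 0.03 without WT replicates 3 and 4, so the sign of Rpl12 turned.

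Rpl11, which together with Rpl5 and a small ribosomal RNA binds Mdm2 when ribosome assembly is disturbed, had log2 intensities of 13.13, 13.21, 13.45 and 13.41 in WT and 13.20, 13.22, 13.38, 13.25 and 13.48 in Ezh2-null arrays. The Ezh2-null range enclosed WT replicates 2, 3 and 4, the change was 0.01 and the 95% interval ran from -0.25 to 0.26. The change was 0.14 without WT replicates 3 and 4. Rpl22, an RNA-binding subunit needed for T cell development in mice, had 13.22, 13.51, 13.78 and 13.80 in WT and 13.47, 13.40, 13.52, 13.55 and 13.58 in Ezh2-null arrays. WT replicate 1 was the lowest array and WT replicates 3 and 4 the highest, and the change was -0.08 (SE 0.13), which turned to 0.14 without the latter 2. Among the genes furthest higher were Rpl39, inside the tunnel, at 0.07, Rpl23a, at the tunnel exit, at 0.06, Rpl9, at the base of the stalk, at 0.05, and Rpl15, a Diamond-Blackfan gene, at 0.04. The 95% interval of each of these 4 held 0. Their changes without WT replicates 3 and 4 were 0.12, 0.14, 0.09 and 0.22.

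The stalk, which recruits the elongation factors, is built on Rplp0 with pairs of Rplp1 and Rplp2. None of the 3 passed. All had a lower mean in the Ezh2-null arrays, but without WT replicates 3 and 4 the changes of Rplp0, Rplp1 and Rplp2 were -0.12, 0.09 and 0.02, so 2 of them turned. Rplp0 had log2 intensities of 13.59, 13.51, 13.70 and 13.57 in WT and 13.39, 13.36, 13.50, 13.34 and 13.55 in Ezh2-null arrays, and the change was -0.16 (SE 0.10, adjusted p = 0.423). Ezh2-null replicate 5 lay above WT replicate 2, so the groups overlapped. Rplp1 had 12.29, 12.43, 12.83 and 12.88 in WT and 12.13, 12.39, 12.64, 12.44 and 12.66 in Ezh2-null arrays, with a change of -0.16 (SE 0.16, adjusted p = 0.656). WT replicates 1 and 2 lay within the Ezh2-null range. Rplp2 differed least, with 14.14, 14.12, 14.20 and 14.21 in WT and 14.08, 14.16, 14.24, 14.04 and 14.21 in Ezh2-null arrays, a change of -0.02 and a 95% interval of -0.23 to 0.19.

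Of the genes mutated in human Diamond-Blackfan anaemia, 14 were measured. Their median log2 change was -0.05, 9 were lower and 5 higher, and none passed or had an unadjusted p under 0.05. Their median was 0.02 without WT replicates 3 and 4, with 5 lower and 9 higher. Of the proteins that complete the ribosome but carry other names, Gnb2l1, which encodes the scaffold RACK1 of the small subunit, changed by -0.17 (SE 0.12, adjusted p = 0.498), or by -0.06 without WT replicates 3 and 4. Over the 5 such genes measured the median was -0.06 and none passed, and without those 2 arrays the median was 0.09.

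Paralogues of ribosomal proteins can replace the standard copy in particular tissues. Their change was compared with that of the standard gene within each array, as the difference paralogue minus standard, by a two-sided exact permutation test over the 126 ways of dividing the arrays into 4 and 5, whose smallest possible p is 0.00794. None of the 6 pairs measured passed after Benjamini-Hochberg adjustment over the pairs, with adjusted p between 0.810 and 0.817. Rps27l, a p53-induced paralogue of Rps27, had log2 intensities of 11.35, 11.74, 12.14 and 12.24 in WT and 11.41, 11.60, 11.62, 11.55 and 11.66 in Ezh2-null arrays. WT replicate 1 was the lowest array and the other 3 WT arrays were the highest, as in Rpl17. Rps27 itself had 14.15, 14.19, 14.05 and 14.09 in WT and 14.17, 14.25, 14.17, 14.06 and 14.17 in Ezh2-null arrays. The change of Rps27l was -0.30 and that of Rps27 0.04, a difference of -0.35 (SE 0.21, exact p = 0.159), and without WT replicates 3 and 4 the difference was 0.02.

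Rpl22l1, the paralogue that rises when Rpl22 is lost in mouse cells, had log2 intensities of 10.31, 10.49, 11.37 and 11.40 in WT and 10.98, 10.55, 11.25, 10.62 and 11.17 in Ezh2-null arrays, and its change minus that of Rpl22 was 0.10 (SE 0.20, exact p = 0.611). Rpl3l, the paralogue of striated muscle, and Rpl39l, that of male germ cells, gave weak signals, with means of 6.34 and 5.88. Their changes minus those of Rpl3 and Rpl39 were -0.06 (SE 0.24) and -0.11 (SE 0.16). For Rpl36al and Rpl36a the difference was 0.05 (SE 0.07), and for Rpl7l1 and Rpl7 it was -0.13 (SE 0.33). With SEs from 0.16 to 0.33 in all pairs but Rpl36al and Rpl36a, a missing call does not show that the copies changed alike. The 5 differences after that of Rps27l, in the order given, were 0.38, -0.42, -0.34, 0.14 and 0.44 without WT replicates 3 and 4. The arrays then left allow too few divisions for a single pair to pass on its own, so the exact test could not decide there. In the limma fit without WT replicates 3 and 4 the changes of Rps27l, Rpl22l1, Rpl3l and Rpl39l themselves were 0.02, 0.51, -0.50 and -0.22, none of which passed.

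**Figure D2:**
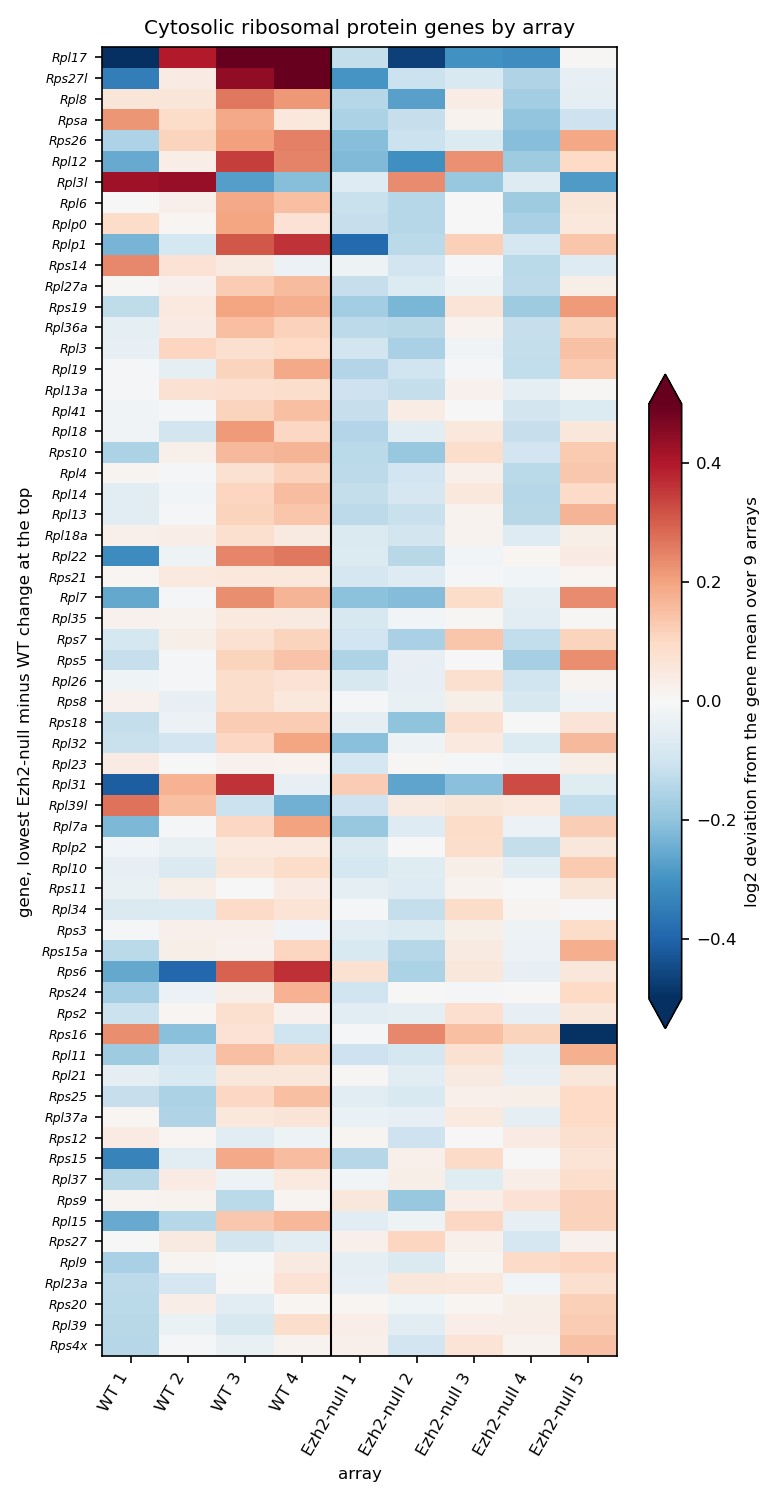
Log2 deviation of 63 of the 64 ribosomal protein genes (rows, the lowest Ezh2-null minus WT change at the top) from its own mean over the 9 arrays (columns), with colours saturating at -0.5 and 0.5. Columns WT 3, WT 4 and Ezh2-null 5 are red for most genes and Ezh2-null 1, 2 and 4 blue, across both genotypes.

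The ribosomal protein genes tended to be high or low on the same arrays, in both genotypes. In WT replicates 1 to 4, 19, 33, 53 and 56 of the 64 genes lay above their own mean over the 9 arrays. In Ezh2-null replicates 1 to 5 the numbers were 9, 10, 46, 15 and 53. Arrays with most genes high and arrays with most genes low thus occurred in each group. For 54 of the 64 genes the highest of the 9 values was on WT replicate 3, WT replicate 4 or Ezh2-null replicate 5. The median deviation over the genes was -0.05, 0.01, 0.09 and 0.10 in WT and -0.09, -0.08, 0.03, -0.05 and 0.08 in Ezh2-null arrays, so the group means of these medians were 0.03 ± 0.07 (SD, n = 4) and -0.02 ± 0.07 (SD, n = 5). As a share of the summed intensity of all genes, the 64 genes took 5.37, 5.50, 5.51 and 5.58% in WT and 5.13, 5.26, 5.63, 5.39 and 5.91% in Ezh2-null arrays. The means of 5.49 ± 0.09% and 5.47 ± 0.31% differed by less than the spread between arrays, and Ezh2-null replicates gave both the lowest and the highest share.

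The neutrophil maturation genes ran largely against this order of the arrays. Of 18 listed, 15 were measured and all 15 had a higher mean in the Ezh2-null arrays, with a median log2 change of 0.90. One passed: Olfm4, a granule protein of maturing neutrophils, at 8.84, 9.82, 8.68 and 9.76 in WT and 13.18, 13.11, 13.04, 13.24 and 11.97 in Ezh2-null arrays, a change of 3.63 (SE 0.32, adjusted p = 0.00299). Their summed intensity ran from 39483 to 125526 in WT and from 100347 to 165167 in Ezh2-null arrays. Their median deviations were 0.19, 0.23, -1.57 and -1.21 in WT and 0.98, 0.85, 0.32, 0.62 and -0.08 in Ezh2-null arrays. Within the 5 Ezh2-null arrays the order by neutrophil genes was the reverse of the order by ribosomal protein genes, with replicate 1 at one end and replicate 5 at the other. In WT, replicates 3 and 4 had the lowest neutrophil and the highest ribosomal values, while replicate 1 lay below replicate 2 in both lists. The part of cell maturity in the ribosomal protein signal was not tested. Without WT replicates 3 and 4 the median change of the neutrophil genes was 0.23, with 13 of 15 higher.

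**Figure D3:**
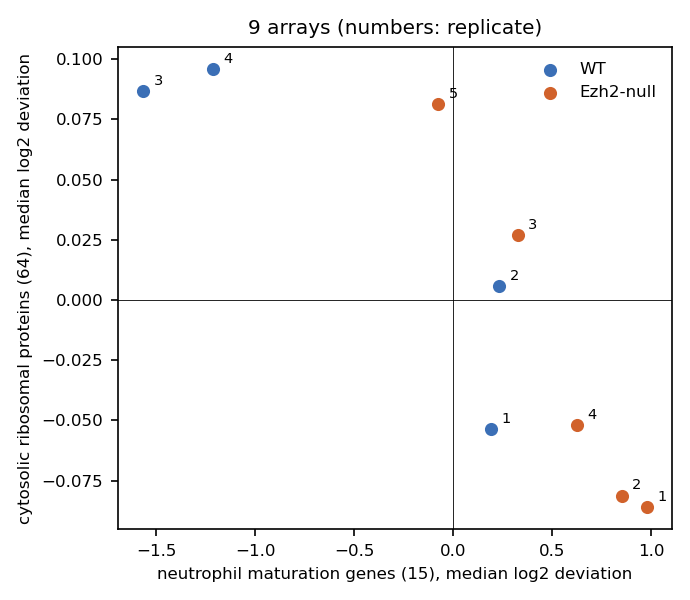
Median log2 deviation of 15 neutrophil maturation genes (horizontal) against that of the 64 ribosomal protein genes (vertical), one point for each of the 9 arrays, numbered by replicate and coloured by genotype. WT 3 and WT 4 lie at the upper left and Ezh2-null 1 and 2 at the lower right, and the vertical axis spans a far smaller range than the horizontal one.

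The genes that build and serve the ribosome had lower median changes than the ribosomal proteins, and none of them passed the test. Of the 29 genes of ribosomal RNA synthesis and the nucleolus, 28 were lower in the Ezh2-null arrays, with a median log2 change of -0.51, changes from -0.94 to 0.01 and 15 at an unadjusted p under 0.05. The mitochondrial ribosomal proteins, which serve the separate ribosome of that organelle, were lower in 73 of 75, with a median of -0.32, 19 of them at an unadjusted p under 0.05. Of 22 chaperones and assembly factors of ribosomal proteins 21 were lower (median -0.25, 7 at an unadjusted p under 0.05), as were 29 of 33 translation initiation factors (median -0.24, 9 at an unadjusted p under 0.05). The other mRNAs known to carry a TOP tract, which encode elongation factors and related proteins, were lower in 17 of 18, with a median of -0.15 and 4 at an unadjusted p under 0.05. The share of all genes at that level was 17.2%.

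These lists leaned on WT replicates 3 and 4, though to unlike degrees. Without WT replicates 3 and 4 the median change was -0.17 for ribosomal RNA synthesis and the nucleolus, with 20 of 29 lower, and 0.02 for the mitochondrial ribosome, with 34 of 75 lower. It was -0.05 for assembly factors, -0.05 for initiation factors and -0.04 for the other TOP mRNAs, beside -0.02 over all genes. In that limma fit 7 of the 29 nucleolar and 9 of the 75 mitochondrial genes had an unadjusted p under 0.05, beside 2461 of 20680 genes. On WT replicates 3 and 4 the median deviation of the nucleolar genes was 0.58 and 0.56, whereas that of the ribosomal protein genes was 0.09 and 0.10. On WT replicates 1 and 2 the nucleolar genes lay at -0.06 and -0.01, still above every Ezh2-null array, of which the highest was -0.08. On Ezh2-null replicate 5 the nucleolar genes lay at -0.13 and the ribosomal protein genes at 0.08, so the lists did not follow one order of arrays.

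**Figure D4:**
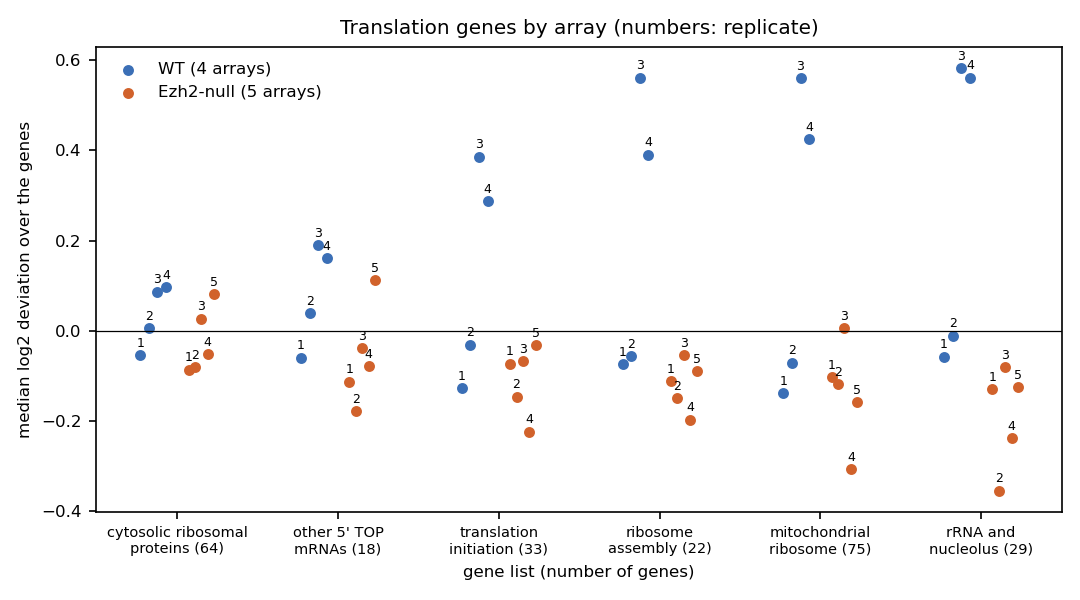
Median log2 deviation from the gene mean (vertical) on each of the 9 arrays for 6 lists of genes of translation (horizontal, with the number of genes), WT in blue and Ezh2-null in orange, numbered by replicate. WT 3 and WT 4 lie highest in every list, at 0.09 and 0.10 for the ribosomal proteins and at 0.58 and 0.56 for the nucleolar genes.

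Dim probe sets of these genes had lower changes than bright ones. The 64 genes had 126 single-gene probe sets, with 33 genes having several and up to 6. Probe sets with a mean log2 intensity of 12 or more, 87 in all, had a median change of -0.05 and none lay outside -0.27 to 0.07. The 39 dimmer ones had a median of -0.20, with 33 lower, and reached -0.75. Without WT replicates 3 and 4 the dimmer ones had a median of -0.04, with 25 of 39 lower. No probe set passed after adjustment over all 37818 single-gene probe sets. Of the 62 probe sets that were not a gene's brightest, 40 had a change of the same sign as the brightest.

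In 4 genes a dimmer probe set had an unadjusted p under 0.05, while 16.3% of all single-gene probe sets did. For Rpl9 the dimmer probe set read 9.74, 9.81, 9.27 and 9.43 in WT and 9.08, 8.91, 7.97, 9.05 and 9.04 in Ezh2-null arrays. The groups did not overlap, and the change was -0.75 (SE 0.24, adjusted p = 0.177). On the brightest probe set of Rpl9, with a mean of 13.82, the change was 0.05. For Rps24 the dimmer probe set read 7.09, 7.82, 7.30 and 7.75 in WT and 6.57, 7.09, 6.66, 6.55 and 6.91 in Ezh2-null arrays, with a change of -0.74 (SE 0.18, adjusted p = 0.114). The brightest probe set of Rps24 had a change of 0.00. For Rps10 and Rps3 the dimmer probe sets changed by -0.70 and -0.37 on the log2 scale (adjusted p = 0.125 and 0.274) and the brightest ones by -0.09 and -0.01. These 4 probe sets were picked out after their values were seen. When WT replicates 3 and 4 were left out, the dimmer probe sets of Rpl9, Rps24, Rps10 and Rps3 had changes of -0.96, -0.70, -0.47 and -0.21. Which transcripts they detect was not given.

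**Figure D5:**
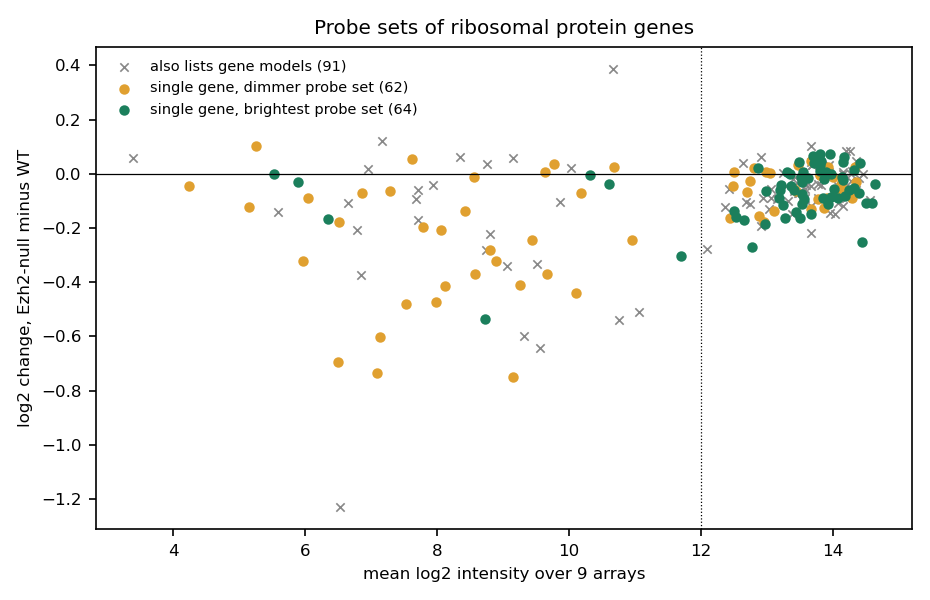
Mean log2 intensity (horizontal) against log2 change, Ezh2-null minus WT (vertical), for 64 brightest and 62 dimmer single-gene probe sets of ribosomal protein genes and for 91 probe sets that also list gene models. Above the dotted line at 12 the single-gene points keep within -0.27 to 0.07, and below it they spread down to -0.75.

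Ribosomal protein genes have many processed pseudogenes, so signal on a probe set can come from near-identical copies. The suffix x_at, which marks probes shared with other transcripts, was on 49 of the 126 single-gene probe sets. Among the 64 brightest ones, used for the gene results, it was on 20. Another 4 of the 64 had the suffix s_at, which also marks shared probes. A further 98 probe sets listed several genes including one with a ribosomal protein name, and in 91 of them all the others were gene models. The median change of those 91 was -0.06, none passed, 4 had an unadjusted p under 0.05 and the changes ran from -1.23 to 0.39. For 15 of the 16 genes that appear only on such probe sets, the brightest of them had a mean log2 intensity between 13.05 and 14.46 and a change between -0.15 and 0.05, with a median of -0.06. Their signal cannot be assigned to one gene.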

How the data were processed

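Total RNA of sorted mouse leukaemia cells was measured on 9 one-colour arrays with 45101 probe sets, 4 WT and 5 Ezh2-null. The deposited values were linear intensities, summarised per probe set by RMA per the submitters' processing notes, and the version was not given in the sources used here. A table the authors deposited after ComBat batch adjustment gave the gene names, and its own intensity values served as an alternative; 7 columns of samples from elsewhere in it were not used, and 2 values below 1 were set to 1. Of the probe sets, 64 were controls, 5820 had no gene and 1399 several genes, which left 37818 for 20680 genes. Each gene was read from its brightest probe set, and log2 intensity was fitted on genotype with limma 3.58.1 in R 4.3.3 (lmFit, eBayes, two-sided, Benjamini-Hochberg over all genes, threshold 0.05). Python 3.11.15 did the rest, and the fit was tested on simulated data. The number of arrays limits the precision. Alternatives covered the batch-adjusted table, other normalization, probe set rules, dim genes below the 40th percentile, array weights, a variance trend, a replicate block and arrays left out.

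Named genes were Ezh2, ribosomal protein genes that passed, the 8 furthest in either direction, the 4 brightest and 4 dimmest, a list of genes with known roles, paralogue pairs, and up to 4 passing genes of each comparison list. Rpl31, Rpl35, Rps3, Rps10 and Rps24, and the dimmer probe set of Rpl9, were named after their values were seen, and some genes that the rule names are not reported here. The genes, lists and tests were chosen with earlier results of these data known.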

Additional observations from a re-analysis of the deposited data

Results flagged for a closer look

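In 102 groups of 4 or 5 arrays, the distance of the highest and lowest array from its nearest neighbour was set against the whole range of the group. In 3 groups an array stood apart, which is fewer than the about 1 in 20 that chance gives. Olfm4 was lower on Ezh2-null replicate 5 than on the other Ezh2-null arrays, at a log2 intensity of 11.97. Rpl13a was lower on WT replicate 1 than on the other WT arrays, at 14.58, although the whole WT range reached only to 14.68. The median deviation of the erythroid markers was highest on Ezh2-null replicate 4, at 0.17.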

How the results depend on the processing

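The number of genes passing, 103, moved to 202 with the batch-adjusted table, 162 with every probe set on its own, 1007 with array weights, 61 without WT replicates 3 and 4 and 488 at an adjusted p under 0.1, and leaving out single arrays gave 17 to 330. No ribosomal protein gene passed under any of these alternatives except Rpl17 without WT replicate 1, so the leave-one-out range was 0 to 1. The median change of the ribosomal protein genes lay between -0.09 and -0.03 when single arrays were left out, between -0.09 and -0.05 under the other alternatives on all 9 arrays, and at 0.01 without WT replicates 3 and 4. It was -0.06 when several-gene probe sets were added, an alternative chosen after seeing the data, as were those for the comparison lists. No paralogue pair passed under any alternative run for them. With arrays left out, however, the exact test has too few divisions for a single pair to pass on its own. Of 577 values of 29 named ribosomal protein genes under alternatives, 41 changed sign, none of them called, and 1 was newly called. A single mitochondrial ribosomal protein gene passed with the batch-adjusted values. Deviations of same-numbered arrays correlated weakly, at -0.05, 0.09, 0.13 and -0.14. The labels gave no pairing, and whether samples with the same replicate number shared a source or a batch was not tested. With the replicate block, to which Ezh2-null replicate 5 adds nothing for want of a WT partner, 135 genes and no ribosomal protein gene passed, the median change was -0.07, and Ezh2 had an adjusted p of 0.0815. For Ezh2 the adjusted p ranged from 0.00632 to 0.149 over all alternatives. Faint probe sets and signals near the top of the range limit what these arrays resolve.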
